A study of Rattus norvegicus with 7 samples.

Results

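Myosin heavy chain genes encode the motor subunits of the thick filament in muscle and of contractile bundles in other cells. Expression of 10 of them was read from an RNA sequencing comparison of the thyroarytenoid, the muscle inside the vocal fold, between Pink1-/- and WT rats. The 10 genes were taken by symbol from the 14702 genes of the authors' deposited table: Myh4, Myh7, Myh3, Myh8, Myh7b, Myh15, Myh14, Myh11, Myh9 and Myh10. Each symbol had a single row, and all 10 were present. Myh1, Myh2, Myh6 and Myh13 were not analysed here.

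The rats were 3 Pink1-/- females, homozygous for loss of Pink1, and 4 WT females, all Long Evans and 8 months old. The labels give no further detail of the knockout allele, and the animals were numbered individually. RNA came from whole dissected muscle, so vessels, nerve, connective tissue and mucosa could contribute to every value. The deposited file holds the genotype comparison and no values per library, so levels per rat, SDs between rats and sequencing depth are unknown here. Pink1, the kinase that flags failing mitochondria for mitophagy, had a log2 fold change of -4.91 (adjusted p 8.24e-49, authors' deposited table).

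A muscle myosin molecule is a dimer of heavy chains with light chains bound at its neck, and the heavy chain present sets how fast a fibre shortens. Adult fast fibres use the type II chains encoded by Myh1, Myh2 and Myh4, slow fibres use the chain encoded by Myh7, and Myh3 and Myh8 encode the embryonic and perinatal chains. Intrinsic laryngeal muscles are among the fastest in the body. Smooth muscle uses Myh11, and the non-muscle myosins II encoded by Myh9, Myh10 and Myh14 drive adhesion, migration and cell division. The rule that chose the genes put Myh14 with the ancient chains Myh7b and Myh15. The symbol Myh14 denotes non-muscle myosin IIC, whereas the ancient chain that some authors call MyHC14 is the product of Myh7b, so Myh14 is described with the non-muscle chains here.

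Of the 10 genes, 2 were lower in Pink1-/- muscle at an adjusted p under 0.05 in the authors' deposited table, Myh7 and Myh9, and none was higher. Over all 14702 genes the authors' edgeR likelihood ratio test called 3.05%, with 1.68% lower and 1.37% higher. When all values were scaled to equal summed CPM, 3 of the 10 were lower, Myh3 being added, against 3.86% of all genes. Centred on the median of 12 genes that all muscle fibres use, 7 of the 10 were lower, against 59.5% of all genes. With every likelihood ratio divided by 1.96, the factor by which their median exceeds that of the chi-square distribution, 1 of the 10 was lower, Myh9. The call of Myh9 applies to 1 of the 2 rows of that gene, whose sum had a log2 ratio of 0.03. At an unadjusted p under 0.05, 4 of the 10 were lower and 0 higher in the authors' deposited table. Over all 14702 genes, 1174 were lower and 1329 higher at that unadjusted threshold. The median log2 fold change of the 10 genes was -0.54, against -0.02 over all genes, with 7 of the 10 below 0. Fold changes are Pink1-/- over WT throughout. The standard errors (SE) and 95% intervals were approximated from the deposited likelihood ratios. Implied levels in CPM, counts scaled to a common total, were computed from the mean level and the fold change, and they are not per length. In bulk muscle, fewer cells of a type and less RNA per cell cannot be told apart.

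**Figure D1:**
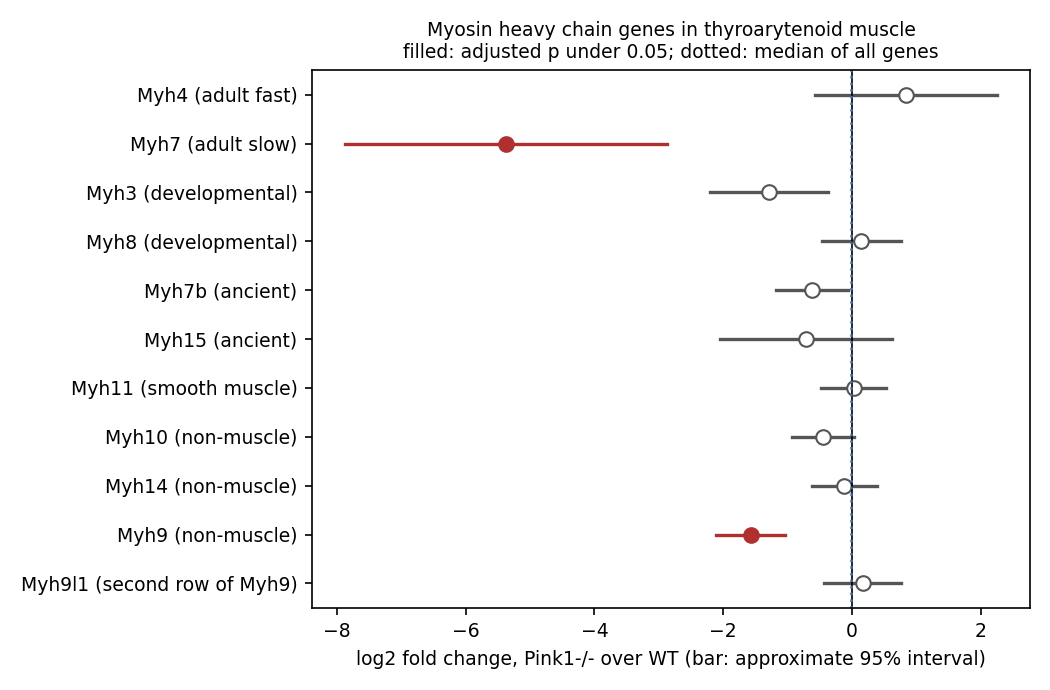
Log2 fold change of Pink1-/- over WT (x axis) for the 10 myosin heavy chain genes and the separate Myh9l1 row, with approximate 95% intervals as bars. Filled points, Myh7 at -5.38 and Myh9 at -1.58, had an adjusted p under 0.05, and the dotted line is the median of all genes.

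Myh4, the type IIb chain of fast fibres, ranked the third highest of all genes by mean CPM. Its implied level was 58665 CPM in Pink1-/- muscle and 32764 CPM in WT muscle. The log2 fold change was 0.84 (adjusted p 0.605, authors' deposited table), so a difference of this size was not called. The SE was 0.72 and the 95% interval ran from -0.58 to 2.26 on the log2 scale. That interval covers values from 1.49-fold lower to 4.78-fold higher in the knockouts. Reads of Myh4 made up 5.37% of all implied CPM in Pink1-/- muscle and 3.47% in WT muscle. Implied CPM were computed from mean levels and fold changes, so their sums need not reach a common total in both genotypes. Myh4 made up 17.4% of the difference between these sums, which is no measure of total RNA. Those sums were 0.21 higher in Pink1-/- than in WT muscle on the log2 scale with Myh4 and 0.18 higher without it.

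Myh4 stands between Myh1 and Myh8 in a run of 6 neighbouring coding genes, in the order Myh3, Myh2, Myh1, Myh4, Myh8 and Myh13, in the RefSeq table of assembly GRCr8. Coding sequences of the adult fast chains are closely alike, so reads could be shared with Myh1 and Myh2, and the value of Myh4 is uncertain for that reason. The promoter window of Myh4 is printed because this chain had the most reads of the 10. It is the RefSeq window of GRCr8 from 250 bases before to 50 after the start, at chr10:52421898-52422197 on the + strand, and RefSeq held such windows for 9 of the 10 members, with none for Myh11. Capitals mark TATAAAA (the TATA box), CAGCTG (an E-box of the kind bound by myogenic factors), CATTCC (the MCAT motif) and the run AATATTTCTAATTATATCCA, each searched on both strands.
Myh4: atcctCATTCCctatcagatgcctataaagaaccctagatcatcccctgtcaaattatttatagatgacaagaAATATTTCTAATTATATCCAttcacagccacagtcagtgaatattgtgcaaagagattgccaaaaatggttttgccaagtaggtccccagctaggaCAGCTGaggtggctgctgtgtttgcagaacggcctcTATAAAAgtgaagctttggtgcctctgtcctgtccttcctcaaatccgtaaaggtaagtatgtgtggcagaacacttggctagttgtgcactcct
The TATA box begins 45 bases before the annotated start. The run of 20 bases is the longest shared by the windows of Myh1, Myh2 and Myh4, and it lies from 177 bases before the start in Myh4, 166 in Myh1 and 170 in Myh2. It was found in 5 of 33365 distinct windows of the same length (0.0150%), those of Myh1, Myh2 and Myh4 and 2 windows of LOC102555216, a long non-coding RNA that starts on the opposite strand over the Myh4 window. TATAAAA occurred in 5.95%, CAGCTG in 15.1% and CATTCC in 14.2% of the windows. None of the marked motifs overlaps another in Myh4.

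Myh7, the slow skeletal and ventricular cardiac chain, had the lowest fold change of the 10. Its implied level was 0.868 CPM in Pink1-/- muscle and 36.0 CPM in WT muscle. Its log2 fold change of -5.38, a 41.5-fold lower level, had adjusted p 0.00343 in the authors' deposited table and ranked number 110 of all genes by p. The approximate 95% interval ran from 7.33-fold to 236-fold lower. The interval of Myh7 overlapped that of none of the other members. It was also the least precise of the 10, with an SE of 1.28. The SE was 5.59 times the median of 0.23 over the 2660 genes within 0.5 log2 units of its mean level. At so low a level in Pink1-/- muscle the fold is a fitted value and no bound. With every likelihood ratio divided by 1.96, the adjusted p of Myh7 became 0.350 and the call ended. Myh7 neighbours Myh6, the atrial cardiac chain, with which it shares much of its sequence, so reads could be split between them.

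Myh7 and Myh7b each carry a microRNA of the family that muscle uses to shape its heavy chain content. By RefSeq coordinates of GRCr8, miR-208b lies within Myh7 and miR-499 within Myh7b. The microRNAs themselves were not analysed here. Their mature forms are shown because the host genes are the slow and the ancient chain, and capitals mark the seed, bases 2 to 8.
rno-miR-208b-3p: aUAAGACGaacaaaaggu
rno-miR-499-5p: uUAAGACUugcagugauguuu
The first 6 of the 7 seed bases are the same in both. Sox6, a repressor of slow genes that is a known target of this family in mice, had a log2 fold change of 0.54 (adjusted p 0.222, authors' deposited table).

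Other genes of slow fibres also lay mostly lower. Among 10 measured slow fibre genes other than Myh7, 9 were below 0, with a median log2 fold change of -1.08. Of these, 1 was called lower and 0 higher, or 2 lower with equal summed CPM. Of all genes, 1.68% were called lower as deposited and 3.86% with equal summed CPM. At an unadjusted p under 0.05, 2 of the 10 slow fibre genes were lower and 1 higher. Over all 14702 genes, 1174 were lower and 1329 higher at that threshold. Myl3, the slow and ventricular essential light chain, had an implied 2.08 CPM in Pink1-/- muscle and 10.3 CPM in WT muscle. Relative to WT the log2 fold change was -2.30 (adjusted p 0.0433, authors' deposited table). Casq2, the slow and cardiac calsequestrin, stood at -1.17 (adjusted p 0.0883, authors' deposited table). Tnnt1, Tnni1 and Tnnc1, the slow troponins, stood at -1.12, -1.22 and -1.32 in the authors' deposited table, each with a 95% interval that included 0. Pln, phospholamban, was the member above 0, at 0.51 (adjusted p 0.291, authors' deposited table). Its 95% interval ran from 0.002 to 1.02 and did not include 0.

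Fast fibre genes lay on the other side of 0 as a list, with no single call. All 11 measured members were above 0 with a median log2 fold change of 0.97, and 0 were called by the authors' edgeR test. At an unadjusted p under 0.05, 5 of them were higher, beside 1329 of all 14702 genes. Mybpc2, fast myosin-binding protein C, had the smallest p, with a log2 fold change of 1.30 (adjusted p 0.0810, authors' deposited table). Genes used by all fibres lay on the same side as the fast genes. Of 12 measured, all were above 0 with a median of 0.70, or 11 with equal summed CPM, and 0 were called, against 5 higher at an unadjusted p under 0.05. Their summed implied level was 33912 CPM in Pink1-/- muscle and 21923 CPM in WT muscle, and Ttn and Tcap of this list were not analysed here. Des, the desmin of the Z-disc, stood at 1.01 in the authors' deposited table. The fold change of Myh4, 0.84, lay within the range of both lists, from 0.77 in Mylpf to 1.35 in Actn3 for fast fibre genes and from 0.13 in Mb to 1.15 in Ckm for all-fibre genes, in the authors' deposited table.

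Heart muscle also uses Myh7, so cardiac markers are given beside it. Of the list of 9 cardiomyocyte genes, 5 were measured, and their summed implied level was 12.8 CPM in Pink1-/- muscle and 21.8 CPM in WT muscle. Without Ryr2 the sum of the other 4 was 8.19 CPM in Pink1-/- muscle and 8.54 CPM in WT muscle. Nppa, Nppb, Myl7 and Myh6 had no row and were not analysed here. Cardiac troponins Tnni3 and Tnnt2 were at an implied 0.839 and 1.04 CPM in Pink1-/- muscle, against 0.683 and 0.752 CPM in WT muscle. Ryr2, the cardiac ryanodine receptor, which neurons and smooth muscle also express, was called lower at -1.54 (adjusted p 0.0334, authors' deposited table). Markers of nerve were lower beside Myh7, with 6 of 12 called lower (8 with equal summed CPM) and summed implied levels of 345 CPM in Pink1-/- and 581 CPM in WT muscle. Their part in the value of Myh7 was not tested. The share of all genes called lower was 1.68% as deposited and 3.86% with equal summed CPM.

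**Figure D2:**
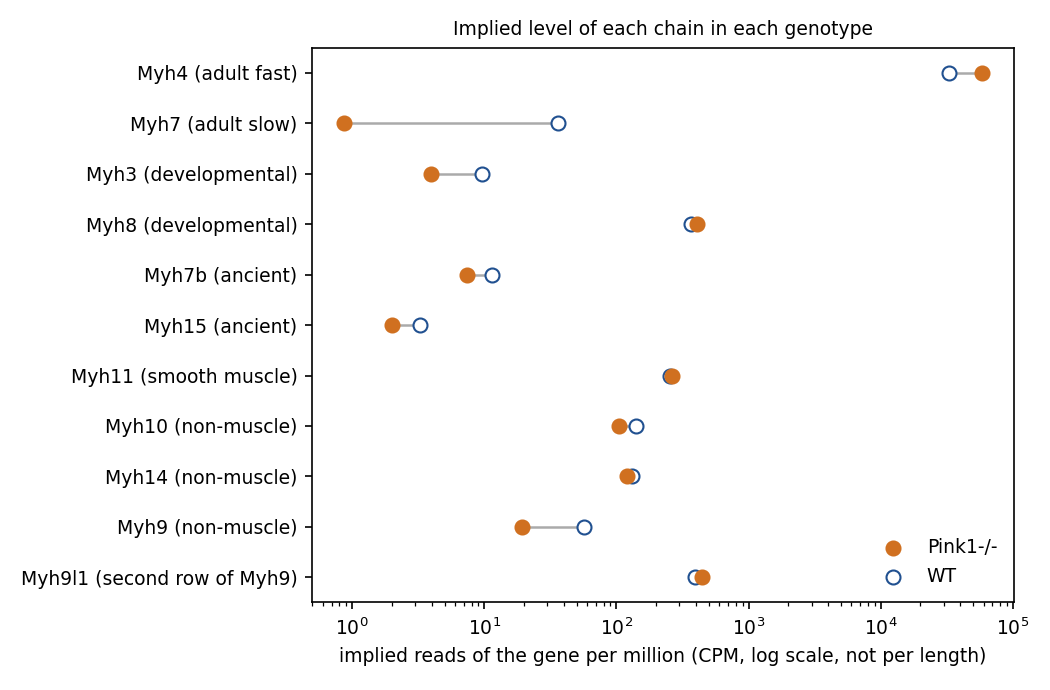
Implied level in CPM (log x axis, not per length) of each chain in Pink1-/- (filled) and WT (open) muscle, joined by a line. The longest line is that of Myh7, at 0.868 and 36.0 CPM, while Myh11, Myh14, Myh8 and Myh9l1 have points close together.

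The developmental chains lay on different sides of 0, and neither was called. Myh3, the embryonic chain, had an implied 3.93 CPM in Pink1-/- muscle and 9.60 CPM in WT muscle. In log2 units the fold change of -1.29 had adjusted p 0.105 in the authors' deposited table and was not called. The approximate interval of -2.21 to -0.37 did not include 0, and under scaling to equal summed CPM Myh3 was called, at -1.50 (adjusted p 0.0381). Myh8, the perinatal chain, which adult laryngeal and jaw muscles can retain, had an implied 407 CPM in Pink1-/- muscle and 369 CPM in WT muscle. Its log2 fold change was 0.14 (adjusted p 0.872, authors' deposited table). With equal summed CPM it became -0.07. The interval of Myh8, from -0.47 to 0.76, overlapped that of Myh3, and the difference between them was not tested. The promoter window of Myh3 is printed because Myh3 is the first gene of the run that holds Myh4. It lies at chr10:52268935-52269234 on the + strand of GRCr8, and capitals mark the same motifs as above.
Myh3: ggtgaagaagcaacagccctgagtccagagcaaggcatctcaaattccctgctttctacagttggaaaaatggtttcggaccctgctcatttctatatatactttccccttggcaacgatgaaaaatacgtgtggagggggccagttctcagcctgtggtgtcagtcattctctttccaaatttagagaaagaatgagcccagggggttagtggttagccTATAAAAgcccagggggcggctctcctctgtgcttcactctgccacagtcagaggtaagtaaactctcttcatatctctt
Only the TATA box was found among the 4 motifs in Myh3, from 30 bases before the start.

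Both chains of the ancient group were low in reads, and neither was called. Myh7b, expressed in heart, muscle spindles and extraocular muscle, had an implied 7.38 CPM in Pink1-/- and 11.4 CPM in WT muscle. Relative to WT the log2 fold change was -0.62 (adjusted p 0.230, authors' deposited table), and the interval ran from -1.18 to -0.06. Myh15 had an implied 1.99 CPM in Pink1-/- and 3.27 CPM in WT muscle. In log2 units the fold change was -0.72 (adjusted p 0.650, authors' deposited table), and its interval of -2.05 to 0.62 included 0. With Myh14 added, as in the rule's own grouping, all 3 were below 0, the median was -0.62 and 0 were called, with 1 lower at an unadjusted p under 0.05.

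Read shares within the 6 striated muscle chains were dominated by Myh4 in both genotypes. Myh4 held 99.3% of these reads in Pink1-/- muscle and 98.7% in WT muscle. Myh8 held 0.690% in Pink1-/- muscle and 1.11% in WT muscle. Myh7 held 0.00147% in Pink1-/- muscle and 0.109% in WT muscle. Without Myh4, the summed implied level of the other 5 was 422 CPM in Pink1-/- and 429 CPM in WT muscle, a log2 ratio of -0.03. These are shares of reads and not of molecules, and Myh1, Myh2, Myh6 and Myh13 are not part of them.

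Light chains, which bind the neck of these heavy chains, were called in both directions. Of 4 measured light chains of striated muscle, Myl4, the atrial and embryonic light chain, was called higher at 5.97 (adjusted p 1.89e-37, authors' deposited table), and Myl3 was the member called lower. Myl4 had an implied 19.4 CPM in Pink1-/- muscle and 0.309 CPM in WT muscle. Its fold thus rests on a WT level under 1 CPM. Beside it, Myl1 had an implied 4581 CPM in Pink1-/- muscle and 2343 CPM in WT muscle. Myl1 and Mylpf, the fast light chains, stood at 0.97 and 0.77 in the authors' deposited table and were not called. Myh3, the heavy chain of embryonic fibres, lay below 0 and was not called, and its relation to Myl4 was not tested. Partners of the thick filament were all above 0. They numbered 12, with a median of 0.77, and 1 was called, Mybph, myosin-binding protein H, at 0.93 (adjusted p 0.0293, authors' deposited table). Of 9 genes of myosin folding, 6 were above 0, or 3 with equal summed CPM, and 1 was called. It was Unc45b, the chaperone that folds muscle myosin, at 0.90 (adjusted p 0.0397, authors' deposited table). Smyd1, a methyltransferase that works with it, stood at 0.75 (adjusted p 0.0915, authors' deposited table). With equal summed CPM the calls of Mybph and Unc45b ended, and that of Myl4 remained. Among all genes, the share called higher was 1.37% as deposited and 0.429% under that scaling.

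Regulators of fibre type were mostly above 0. Of 28 measured, 23 were above 0 with a median of 0.35, and 2 were called higher and 0 lower. Myog, the myogenin of differentiating muscle, was one of them, at 1.21 (adjusted p 0.0292, authors' deposited table). Myod1, a myogenic factor enriched in fast muscle, stood at 1.34 (adjusted p 0.0974, authors' deposited table). Prox1, which supports slow genes in mice, stood at -0.68 (adjusted p 0.299, authors' deposited table). With equal summed CPM both calls ended, and 18 of the 28 were above 0. The share of all genes called higher was 1.37% as deposited and 0.429% with equal summed CPM.

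**Figure D3:**
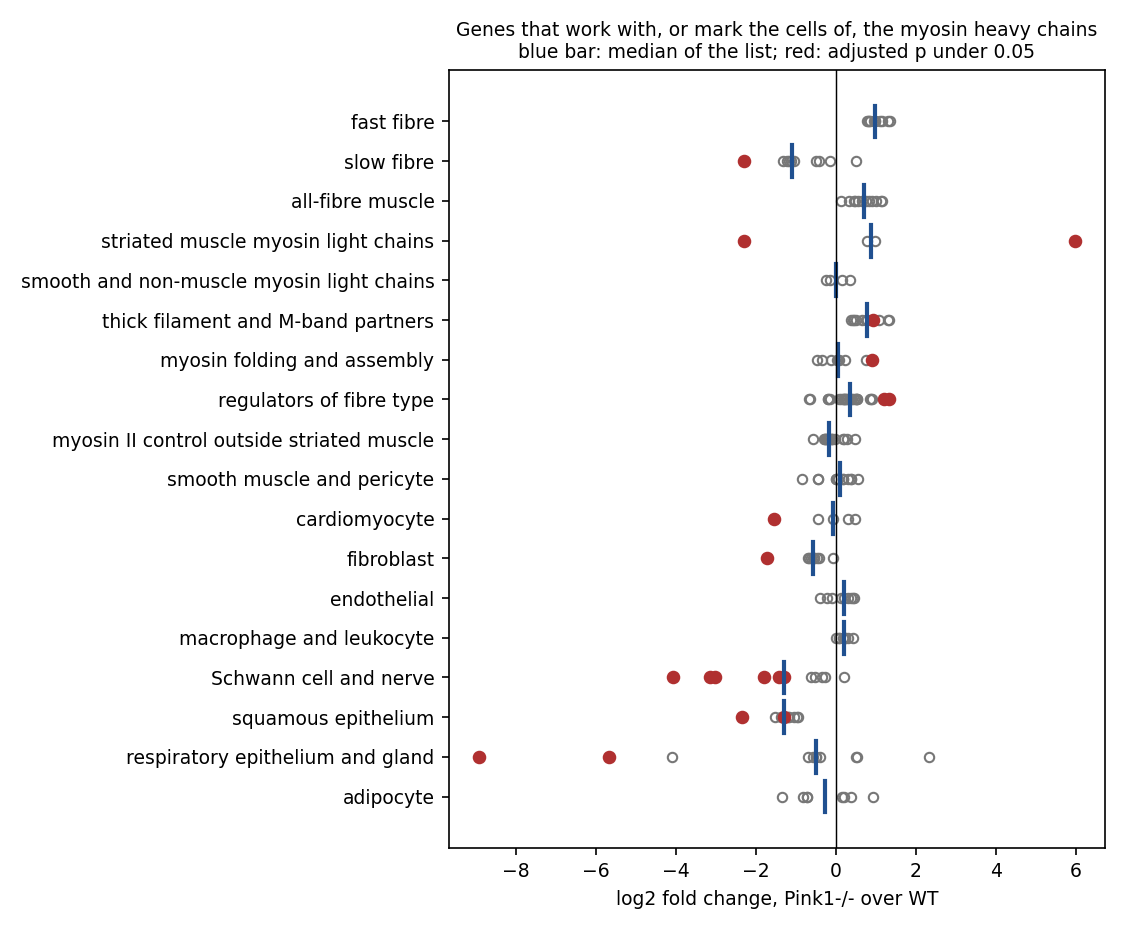
Log2 fold changes of Pink1-/- over WT (x axis) for the measured genes of 18 lists (rows), with the list's median as a blue bar and genes with an adjusted p under 0.05 in red. Fast fibre genes sit above 0 (median 0.97) and slow fibre genes mostly below (median -1.08), and the epithelial and nerve lists reach furthest below 0.

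Myh11, the chain of smooth muscle, was not called. Its implied level was 261 CPM in Pink1-/- muscle and 256 CPM in WT muscle. The log2 fold change was 0.03 (adjusted p 0.975, authors' deposited table). The interval ran from -0.48 to 0.53, so a change of up to 1.39-fold lower or 1.44-fold higher was within error. With equal summed CPM it was -0.18. Among 12 markers of smooth muscle and pericytes, 9 were above 0 with a median of 0.12, which became 4 and -0.10 with equal summed CPM. None was called by the authors' edgeR test, with 1 higher at an unadjusted p under 0.05. Acta2 and Cnn1, actin and calponin of smooth muscle, stood at -0.45 and -0.85, and Tagln and Smtn at 0.30 and 0.37, in the authors' deposited table. The summed level of the list was 587 CPM in Pink1-/- muscle and 511 CPM in WT muscle.

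Of the non-muscle chains, Myh10 and Myh14 were not called. Myh10, non-muscle myosin IIB, had an implied 104 CPM in Pink1-/- and 142 CPM in WT muscle. Its log2 fold change was -0.45 (adjusted p 0.339, authors' deposited table), and the interval ran from -0.93 to 0.03. Myh14, non-muscle myosin IIC, which epithelia express strongly, had an implied 121 CPM in Pink1-/- and 131 CPM in WT muscle. Relative to WT the log2 fold change was -0.12 (adjusted p 0.872, authors' deposited table). The interval of Myh14 ran from -0.62 to 0.39.

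Myh9, non-muscle myosin IIA of blood cells, fibroblasts and epithelia, had the smallest p of the 10. The Myh9 row had an implied 19.2 CPM in Pink1-/- muscle and 57.2 CPM in WT muscle. The log2 fold change was -1.58, a 2.98-fold lower level (adjusted p 1.03e-05, authors' deposited table), and it ranked number 14 of all genes by p. The SE was 0.27 and the interval ran from 2.05-fold to 4.33-fold lower. The call held with likelihood ratios divided by 1.96, with an adjusted p of 0.0434, a setting under which 14 genes remained called (0.0952%).

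The authors' deposited table also holds a row under the symbol Myh9l1, which the RefSeq table of GRCr8 lists as a synonym of Myh9. That row was not called. In log2 units the fold change was 0.17 (adjusted p 0.836, authors' deposited table), and its interval of -0.43 to 0.77 did not overlap that of the Myh9 row. It held many more reads, with an implied 444 CPM in Pink1-/- muscle and 395 CPM in WT muscle. The Myh9 row therefore carried 4.14% of the reads of both rows in Pink1-/- muscle and 12.6% in WT muscle. Summed over both rows, the implied level was 464 CPM in Pink1-/- muscle and 453 CPM in WT muscle, a log2 ratio of 0.03 that was not tested. The lower value of Myh9 thus applies to the smaller row and not to the sum. The sources used here do not say which transcripts or gene models the 2 rows stand for.

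RefSeq held 2 promoter windows for Myh9, and motif positions in the other window are not reported here. The window at the 5′ end of the gene is printed, as that of the chain with the smallest p. It lies at chr7:111304914-111305213 on the - strand of GRCr8, written 5′ to 3′ along the gene.
Myh9: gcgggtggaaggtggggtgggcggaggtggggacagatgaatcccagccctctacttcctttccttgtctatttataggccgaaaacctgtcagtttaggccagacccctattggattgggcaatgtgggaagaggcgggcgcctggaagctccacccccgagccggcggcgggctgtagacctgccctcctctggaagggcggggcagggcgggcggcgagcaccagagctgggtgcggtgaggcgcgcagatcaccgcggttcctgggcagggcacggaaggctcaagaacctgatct
None of the 4 motifs was found in this window, which is therefore all in lower case.

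Cells that use the non-muscle chains were followed through their markers. Of 11 squamous epithelium genes all were below 0, with a median of -1.30 and 2 called lower (6 with equal summed CPM). Their summed implied level was 1018 CPM in Pink1-/- muscle and 2219 CPM in WT muscle. Over all genes, 1.68% were called lower as deposited and 3.86% with equal summed CPM, a setting that lowers every log2 fold change by 0.21. Of 10 fibroblast genes all were below 0, with a median of -0.57, and 1 was called, Thy1, a surface glycoprotein of fibroblasts and neurons, at -1.73 (adjusted p 0.00419, authors' deposited table). Their summed level was 2438 CPM in Pink1-/- muscle and 3423 CPM in WT muscle. Nerve and Schwann cell genes had a median of -1.29. Macrophage and leukocyte genes lay at a median of 0.20, with 8 of 8 above 0 (4 with equal summed CPM) and 0 called, and 0 at an unadjusted p under 0.05. Endothelial genes lay at a median of 0.22 (0.00 with equal summed CPM), with 0 of 9 called and 0 at an unadjusted p under 0.05. Glands of the airway lining had 8 of 11 genes below 0 and 2 called lower, Tff2, a mucus-associated peptide, and Bpifb1, a secreted airway protein. The summed level of the gland list, 7770 CPM in Pink1-/- muscle and 14898 CPM in WT muscle, rested on Muc5b, a secreted mucin that was not called, and without it became 7137 CPM in Pink1-/- and 4163 CPM in WT muscle. Bpifa1, another secreted airway protein, stood above 0, at 2.32 (adjusted p 0.153, authors' deposited table). It held 4714 CPM of that remainder in Pink1-/- muscle and 944 CPM in WT muscle, so the higher remainder rested on this uncalled gene. Adipocyte genes were 4 above and 4 below 0, with 0 called and, at an unadjusted p under 0.05, 1 higher and 1 lower. The part of these markers in the Myh9 value was not tested.

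Genes that control non-muscle and smooth muscle myosin were not called. They numbered 17, with 13 below 0, a median of -0.16, and 0 past the authors' edgeR test at the adjusted threshold or at an unadjusted p under 0.05. S100a4, which binds the Myh9 product and disassembles its filaments, stood at -0.56 (adjusted p 0.374, authors' deposited table). Rock1, a kinase that raises myosin II activity, stood at -0.30 (adjusted p 0.499, authors' deposited table). The light chains of these myosins, Myl6, Myl9, Myl12a and Myl12b, lay between -0.23 and 0.36 in the authors' deposited table, 1 of the 4 above 0 with equal summed CPM, with 0 called and 0 at an unadjusted p under 0.05.

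In the order of fold changes, the 10 genes ran from Myh7 through Myh9, Myh3, Myh15, Myh7b, Myh10, Myh14, Myh11 and Myh8 to Myh4. The intervals of every pair of neighbours in that order overlapped except those of Myh7 and Myh9. The interval of Myh9 was also separate from those of Myh10, Myh14, Myh11, Myh8 and Myh4. Overlap of intervals is a description, since the difference between genes was not tested without values per library.

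**Figure D4:**
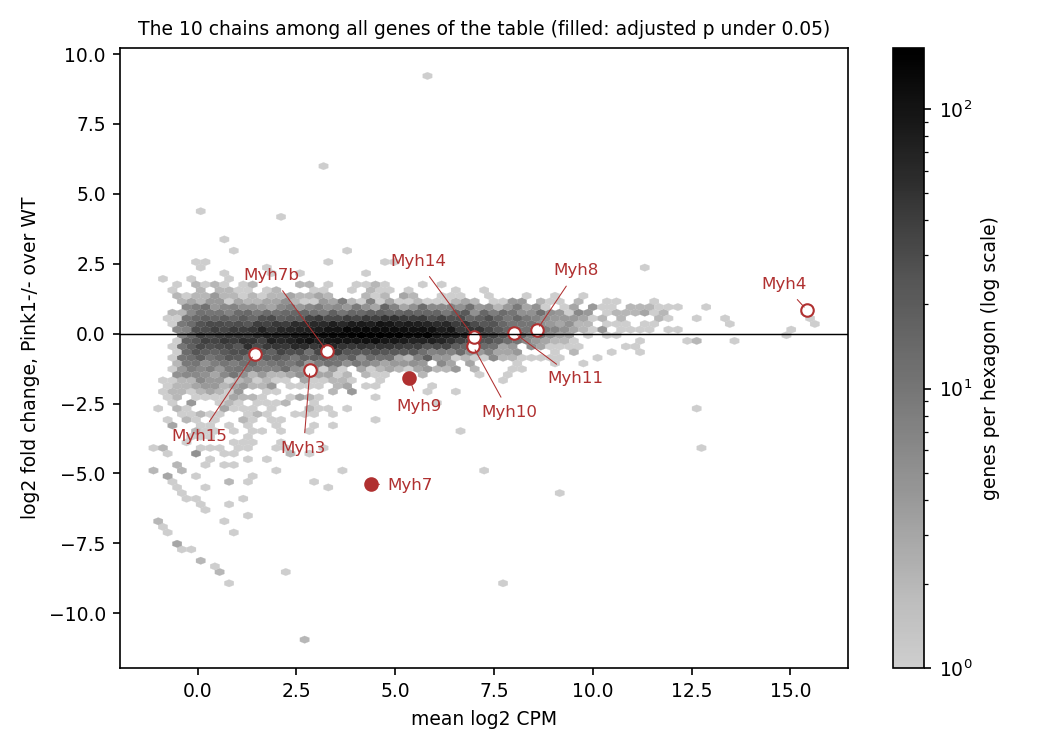
Log2 fold change of Pink1-/- over WT (y axis) against mean log2 CPM (x axis) for all 14702 genes, shown as shaded hexagons by number of genes, with the 10 myosin heavy chain genes as red circles, filled where the adjusted p was under 0.05. Myh4 sits at the far right with a mean of 15.42, and Myh7 stands well below the genes of like level.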

How the data were processed

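RNA sequencing of the thyroarytenoid muscle compared 3 Pink1-/- with 4 WT rats. The submitters' processing notes name RSEM and edgeR 3.9, and the sources used here give no aligner, build, annotation, filter or scaling. The authors' deposited table gives, per the file headers, for each of 14702 genes a log2 fold change, a mean CPM in log2, the likelihood ratio as a test score, its p-value and the p-value after adjustment. The deposited p-values follow from the likelihood ratios by the chi-square distribution (1 degree of freedom), and the adjustment was made over 14705 genes, of which 3 were not analysed here. Depth is unknown, and strand use is not given.

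No test per gene was run beyond the authors' own. With Python 3.11.15, scipy 1.17.1 and pandas 2.3.3, SE was taken as the size of the log2 fold change over the square root of the likelihood ratio. Implied CPM assumed equal library sizes. Lengths of transcripts were not used, so levels are not per length. Scaling and centring alternatives shifted every fold change, kept its SE and adjusted again by Benjamini-Hochberg; this step was tested on simulated data.

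The members and the 18 lists were chosen with earlier results of these data known. Of 213 listed genes, 189 were found, 1 by an older name. The rule named all members and, from each list, up to 4 genes with the smallest p. The genes Tnnt1, Tnni1, Tnnc1, Actn3, Mylpf, Mb, Ckm, Sox6, Prox1, Cnn1, Tagln, Mical2, Myo16 and Myo18b were named after their values were seen. Genes were called where the deposited adjusted p was under 0.05. Where a symbol was repeated, the row with the highest mean was kept. Values of some listed genes are not reported here.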

Additional observations from a re-analysis of the deposited data

How the results depend on the processing

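No paired analysis was possible because the table holds no values per library, and for the same reason no replicate was left out. No member symbol was repeated, so that alternative gave no value, and levels per coding length were not run for want of lengths. The number of chains called lower, 2 as deposited, became 7 when fold changes were centred on the all-fibre muscle list, which lowers every value by 0.70 and calls 59.5% of all genes lower, and 1 (Myh9) with likelihood ratios divided by 1.96, where Myh7 had an adjusted p of 0.350. It stayed 2 with centring on the median of all genes and with a mean of at least 1 CPM, and 0 chains were called higher under every setting run. Adjusted p of Myh9 ran from 4.02e-13 to 0.0434 and that of Myh7 from 4.39e-05 to 0.350 over the settings. Scaling to equal summed CPM also called Myh3, and without Myh4 in the sums, a setting chosen after seeing the data, Myh3 stood at -1.47 with an adjusted p of 0.0474. Signs turned for chains close to 0. Myh8 became -0.068 with equal summed CPM, -0.040 with Myh4 left out of the sums and -0.56 on the all-fibre centring, and Myh11 became -0.18, -0.15 and -0.68 under the same settings. Summing the Myh9 and Myh9l1 rows, also chosen after seeing the data, turned -1.58 to 0.035. Over the 189 genes found for the partner lists, scaling to equal summed CPM moved those called higher to 1, against 5 as deposited. Those called lower moved to 20, against 13 as deposited. The whole table moved the same way, from 1.37% to 0.429% called higher and from 1.68% to 3.86% called lower. The cause of these moves was not tested beyond the shift itself. Sums of lists without the gene that differed most were also added after seeing the data.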

Other observations

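Rows whose symbols RefSeq treats as names of the same gene were compared across the table after the Myh9 rows had been seen. There were 15 such pairs with both rows at a mean of at least 1 CPM, and the median difference in log2 fold change within a pair was 0.43. The Myh9 and Myh9l1 rows differed by 1.74, the second largest of the 15, behind Mical2 and Micalcl at 1.82. Rows of a pair can therefore differ in the authors' deposited table in other genes too, but mostly where a row held few reads. Micalcl had a mean log2 CPM of 1.201. The pairs next in size after Myh9 held AABR07002868.1 at 0.77, Oas1g at 0.57 and Adprhl1 at 0.96. Myh9 and Myh9l1 stood at 5.354 and 8.702, with SE of 0.27 and 0.31. Among the pairs named here, only this one had both rows well above such low levels. SE of the other pairs were not compared.

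Unconventional myosins, taken here as symbols of Myo followed by a number, were measured for 18 genes. Of these, 11 were below 0 with a median of -0.09. Myo16, a myosin of the nervous system, was the 1 called, at -2.58 (adjusted p 0.0202, authors' deposited table), beside 3.05% of all genes. Its mean log2 CPM was -0.23, which is under 1 CPM. At an unadjusted p under 0.05, 2 of the 18 were higher and 3 lower. Myo18b, 1 of those higher, had a mean log2 CPM of 8.12. It stood at 0.89 (adjusted p 0.0692, authors' deposited table) and was not called.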
